A study of Homo sapiens with 8 samples.

Results

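The levels of 30 genes of cholesterol and fatty acid synthesis were followed in RD18 cells, a clone of the human rhabdomyosarcoma line RD, after transfer of a pair of microRNAs. The genes form a list of names from these routes, with no cut on measured values. The list was chosen with earlier results of these data known, so the counts below are not those of a list drawn up blind. It comprises 5 regulators of the SREBP transcription factors, 7 enzymes of the mevalonate pathway and 11 enzymes that turn squalene precursors into cholesterol. The others are 3 genes of sterol transfer and efflux and 4 enzymes of fatty acid synthesis. All 30 were found among the 22808 gene symbols of the count table, and all 30 were among the 12366 genes with enough counts to be tested. The vehicle group (4 libraries) received lipofectamine, a lipid transfection reagent, and the treated group (4 libraries) received miR-449a and miR-340. RNA was taken at 60 h from bulk cultures of this fusion-negative line, meaning one without the PAX-FOXO1 fusion gene of other rhabdomyosarcomas. The labels name no control RNA for the vehicle cells, so every difference covers both the pair of microRNAs and the presence of any transfected RNA. Nothing in the labels ties the replicates to separate cultures, so p-values describe only the spread among these libraries, which may be technical.

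Cholesterol is built from acetyl-CoA through mevalonate, squalene and lanosterol, while fatty acids are built from the same acetyl-CoA by carboxylation and repeated condensation. Both routes are switched on by the SREBP factors, which are made as precursors in the endoplasmic reticulum, carried to the Golgi by SCAP when sterols are scarce and held back by the INSIG proteins when sterols are plentiful. SREBF2 encodes the factor that acts mainly on cholesterol genes, and SREBF1 encodes the forms that act more on fatty acid genes. Both SREBF genes also carry an intronic microRNA of the miR-33 family, which is known to repress the cholesterol exporter gene ABCA1.

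The microRNAs that were transferred, and the pair of miR-33 microRNAs encoded within the SREBF genes, are shown because the sites described further on are read from them. The sequences are mature RNAs from RefSeq (GRCh38.p14), 5′ to 3′, with the seed (bases 2 to 8) in capitals. The labels name miR-340 without an arm, and it is read here as miR-340-5p.
miR-449a: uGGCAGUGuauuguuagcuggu
miR-340-5p: uUAUAAAGcaaugagacugauu
miR-33a-5p: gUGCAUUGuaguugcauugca
miR-33b-5p: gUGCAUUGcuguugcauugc
The seeds of miR-449a and miR-340-5p differ from each other and from the seed that miR-33a-5p and miR-33b-5p share. MiR-33a-5p lies at chr22:41900949-41900969 on the plus strand inside SREBF2, and miR-33b-5p lies at chr17:17813897-17813916 on the minus strand inside SREBF1. Neither overlaps an annotated exon of its host. Mature microRNAs are not captured in polyadenylated RNA libraries, so their own levels were not measured.

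Library totals ran from 2567737 to 5569342 counts, and mitochondrially encoded genes took 18.1% to 23.3% of them. The log2 levels correlated at 0.972 or more within a group and at 0.859 or less between groups. Of the tested genes, 4125 (33.4%) were higher and 4199 (34.0%) lower in treated cells at an adjusted p under 0.05, and the libraries of the groups did not overlap in 7281 (58.9%). The middle 50% of tested genes lay between -0.58 and 0.56 log2 units. Scaling by library size alone moved the whole set upward by a median of 0.138 log2 units, so each change is relative to the middle of the tested genes. All 7 markers of skeletal muscle and rhabdomyosarcoma were present in vehicle cells and lower in treated cells. Among them was MYOD1, the muscle master regulator, with a mean of 204 CPM in the vehicle and 108 CPM in the treated group. MYOG (0.322 to 1.07 CPM in treated libraries) and MYH8 (0 to 1.03 CPM) passed the filter on low counts only through the vehicle group. The summed level of the 7 markers was 1363.4 to 1412.8 CPM in vehicle and 908 to 927 CPM in treated libraries. Markers of leukocytes summed to at most 2.92 CPM, of endothelium to at most 1.29 CPM, of adipocytes to at most 0.518 CPM and of steroid-producing cells to at most 0.344 CPM in any library. The hepatocyte markers had no entry. The 3 epithelial markers in the table summed to 0.259 to 1.80 CPM in vehicle and 3.79 to 5.47 CPM in treated libraries, with CDH1 at 0 in every vehicle library and at most 0.355 CPM in a treated one. EPCAM, at 0 to 0.418 CPM in vehicle and 0.682 to 2.57 CPM in treated libraries, was too low to be tested. CLDN4 was called higher in treated cells, with means of 0.807 and 3.10 CPM (adjusted p = 0.00068), and passed the filter on low counts only through the treated group. The part of these shifts in the results was not tested.

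Most of the lipid synthesis genes were lower in treated cells. Of the 30 genes, 19 fell, 2 rose and 9 were not called, beside 34.0% of all tested genes lower and 33.4% higher. The median change of the 30 was -0.37 log2 units, beside -0.00 for all tested genes. At least 2-fold falls were found for 6 of the 30 (DHCR7, FASN, SREBF2, MVD, EBP and SCAP) and at least 2-fold rises for none. Among all 12366 tested genes there were 1622 falls and 1542 rises of that size. In 17 of the 30 the vehicle and treated libraries did not overlap, close to the 58.9% of all tested genes. The 30 genes together held 0.293% to 0.352% of the counts of the vehicle libraries and 0.218% to 0.237% of those of the treated libraries. In bulk RNA, fewer cells that express a gene and less of its RNA per cell cannot be told apart.

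**Figure D1:**
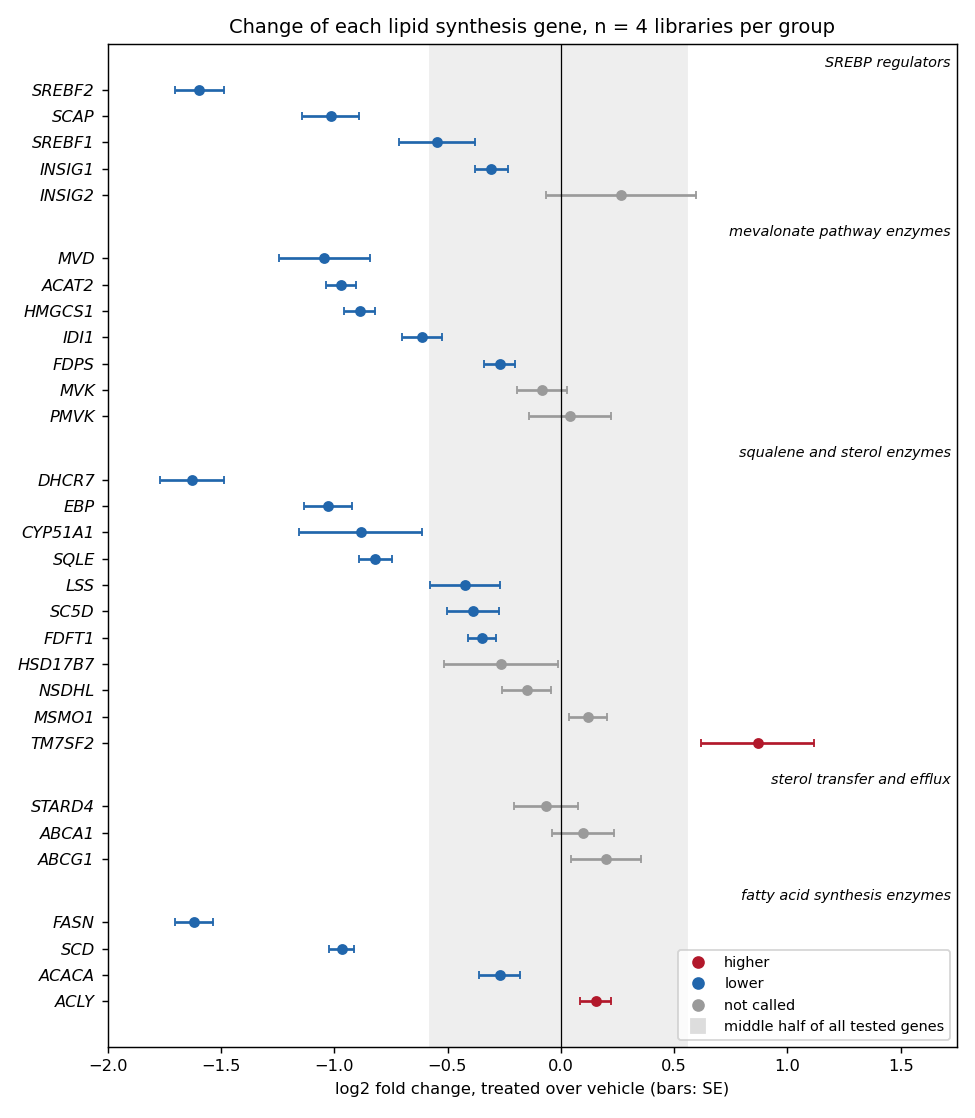
Log2 fold change (treated over vehicle, x axis) of each of the 30 genes, grouped by role on the y axis, with bars of 1 SE, 4 libraries a group. Blue points were called lower, red points higher and grey points not called, and the shaded band is the middle 50% of all 12366 tested genes (-0.58 to 0.56). FASN, SREBF2 and DHCR7 stand farthest to the left, and TM7SF2 alone lies to the right of the band.

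The SREBP regulators were lower except for INSIG2. Of the 5, 4 fell and none rose, with a median of -0.55 log2 units. SREBF2 (chr22:41833079-41907308, plus strand, GRCh38) measured 72.8, 75.9, 83.1 and 77.6 CPM (counts scaled to a common library size, after TMM) in the vehicle libraries and 24.1, 28.3, 28.6 and 21.2 CPM in the treated libraries. The lowest vehicle library was above every treated library by a wide margin. The mean went from 77.3 ± 4.32 to 25.6 ± 3.53 CPM (SD, n = 4), which is 3.02-fold lower (log2 fold change -1.59, SE 0.11, adjusted p = 3.73e-20, edgeR). SCAP (chr3:47413694-47477126, minus strand), the escort of both factors, measured 51.0, 39.9, 49.4 and 52.2 CPM in vehicle and 23.3, 26.3, 26.9 and 17.7 CPM in treated libraries. These groups did not overlap either, and the mean went from 48.1 to 23.5 CPM, 2.02-fold lower (log2 fold change -1.02, SE 0.13, adjusted p = 2.37e-10).

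SREBF1 (chr17:17810399-17837002, minus strand) fell less. Its level was 18.8, 22.0, 16.4 and 20.6 CPM in vehicle and 13.7, 15.2, 11.4 and 11.9 CPM in treated libraries, with no overlap but a gap smaller than either SD. The log2 fold change was -0.55 (SE 0.17, adjusted p = 0.00345), 1.46-fold lower. INSIG1, itself a classic SREBP target that closes the feedback loop, measured 169, 150, 182 and 185 CPM in vehicle and 138, 145, 121 and 149.99 CPM in treated libraries. The lowest vehicle library (150.43 CPM) and the highest treated library nearly touched. Its fall was 1.24-fold (log2 fold change -0.31, SE 0.07, adjusted p = 0.000231) and was not called when library size alone set the scale (adjusted p = 0.0595). INSIG2, the paralogue whose transcription depends less on sterols, measured 3.35, 5.44, 2.69 and 2.51 CPM in vehicle and 4.26, 3.75, 4.13 and 4.83 CPM in treated libraries. The groups overlapped, and with a ratio of 1.203 (95% interval 0.760 to 1.91) the counts for this low gene could not show a difference (adjusted p = 0.483).

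**Figure D2:**
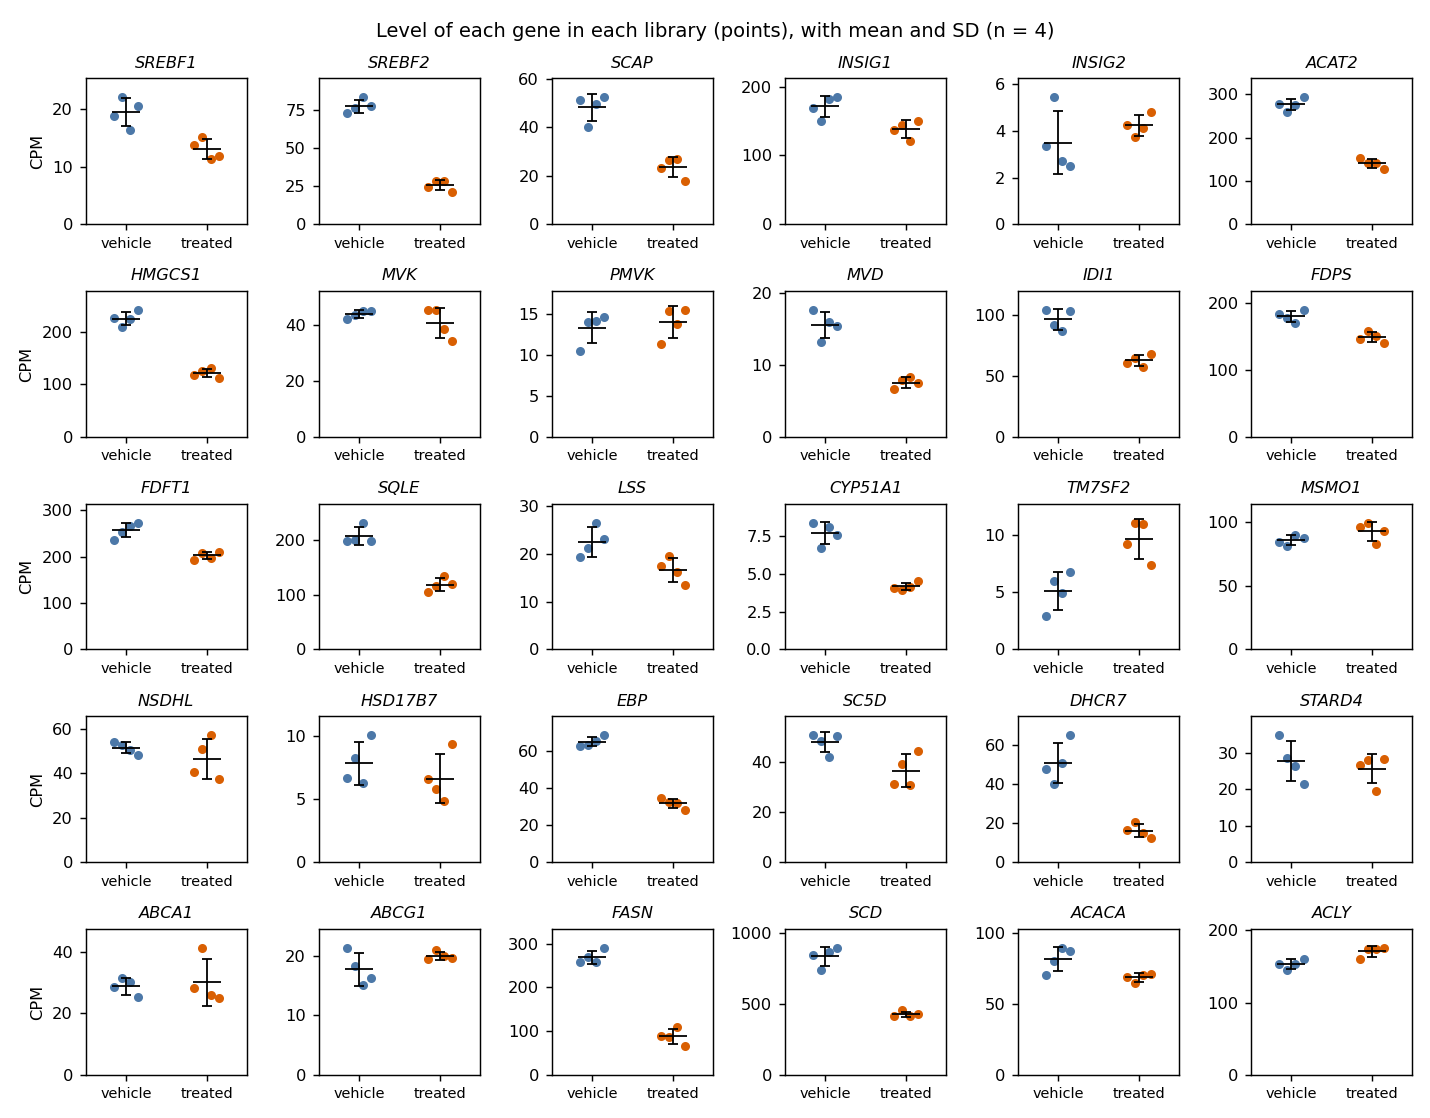
Level of each of the 30 genes in CPM (y axis, from 0, a separate scale for each gene) in the 4 vehicle (blue) and 4 treated (orange) libraries, with the mean and SD as bars. SREBF2, DHCR7 and FASN show wide gaps between the groups, whereas MVK, STARD4 and ABCA1 overlap.

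Enzymes of the mevalonate pathway fell at its start and end, with members between them that were not called. Of the 7, 5 fell and none rose, with a median of -0.61 log2 units and summed levels of 809 to 903 CPM in vehicle and 506 to 558 CPM in treated libraries. ACAT2, the cytosolic thiolase that joins acetyl-CoA units, measured 278, 260, 276 and 293 CPM in vehicle and 153, 141, 141 and 127 CPM in treated libraries. No treated library came near the vehicle range, and the fall was 1.96-fold (log2 fold change -0.97, SE 0.07, adjusted p = 4.46e-20). Of the annotated exon bases of ACAT2, 52.3% are shared with genes of the opposite strand (SOD2, SOD2-OT1 and TCP1), and its level is uncertain because whether the counting used strand is not given in the sources used here. HMGCS1, the cytosolic HMG-CoA synthase (chr5:43289395-43313512, minus strand), measured 227, 210.0, 225 and 242 CPM in vehicle and 118, 126, 131 and 113 CPM in treated libraries. Again the groups were well apart, with a 1.85-fold fall (log2 fold change -0.89, SE 0.07, adjusted p = 1.11e-17).

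MVD, the mevalonate diphosphate decarboxylase (chr16:88651935-88663161, minus strand), measured 17.6, 13.2, 15.9 and 15.3 CPM in vehicle and 6.57, 7.85, 8.26 and 7.40 CPM in treated libraries. All treated libraries lay below all vehicle libraries, with a 2.06-fold fall (log2 fold change -1.04, SE 0.20, adjusted p = 7.48e-06). IDI1, the isomerase that makes dimethylallyl diphosphate, fell 1.53-fold, from 96.6 ± 8.78 to 62.8 ± 4.76 CPM (SD, n = 4, adjusted p = 1.89e-08). FDPS, the farnesyl diphosphate synthase, fell 1.21-fold from 179.5 ± 8.45 to 148 ± 7.54 CPM (adjusted p = 0.000423), a call that was lost when library size alone set the scale (adjusted p = 0.102). It has 8 annotated pseudogenes by name and shares 18.6% of its exon bases with an antisense gene, so reads may be split. The pair of kinases that phosphorylate mevalonate in turn were not called. MVK had a ratio of 0.943 of treated to vehicle (95% interval 0.810 to 1.10) and PMVK one of 1.03 (0.800 to 1.32).

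The route from squalene to cholesterol held both the deepest fall of the 30 genes and 1 of the 2 rises. Of its 11 enzymes, 7 fell, TM7SF2 rose and 3 were not called, with a median of -0.39 log2 units. DHCR7, the reductase of the last step from 7-dehydrocholesterol (chr11:71428193-71452868, minus strand), measured 47.7, 40.1, 50.8 and 64.8 CPM in vehicle and 16.3, 20.3, 15.1 and 12.2 CPM in treated libraries. The vehicle libraries varied more than the treated ones, yet the lowest was well above all treated libraries. The fall was 3.09-fold (log2 fold change -1.63, SE 0.14, adjusted p = 5.86e-15). EBP, the sterol isomerase that acts earlier on the same ring (chrX:48521158-48528716, plus strand), measured 62.8, 63.4, 65.6 and 68.3 CPM in vehicle and 34.4, 32.2, 31.7 and 28.3 CPM in treated libraries. Both groups were tight and far apart, with a 2.04-fold fall (log2 fold change -1.03, SE 0.10, adjusted p = 3.77e-13).

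SQLE, squalene epoxidase, a rate-controlling step of the later pathway, measured 197, 200.1, 231 and 198 CPM in vehicle and 105, 116, 134 and 120 CPM in treated libraries. The groups did not overlap, and the fall was 1.76-fold (log2 fold change -0.82, SE 0.07, adjusted p = 3.77e-15). FDFT1, the squalene synthase just before it, fell only 1.27-fold, from 257 ± 15.8 to 203 ± 7.98 CPM (SD, n = 4, adjusted p = 1.89e-06). CYP51A1, the lanosterol demethylase, fell 1.84-fold from 7.68 ± 0.720 to 4.16 ± 0.247 CPM (adjusted p = 0.00342). Its level is uncertain, because 83.2% of its exon bases are shared with other annotated genes, chiefly a readthrough gene of the same strand, and 3 pseudogenes carry its name. LSS, which closes the rings of lanosterol, fell 1.34-fold (adjusted p = 0.0134) with overlapping groups, and SC5D, a desaturase near the end of the route, fell 1.31-fold (adjusted p = 0.00267) with overlapping groups. Both calls were lost when library size alone set the scale (adjusted p = 0.1001 for LSS and 0.0615 for SC5D), and that of LSS also without vehicle replicate 3 (adjusted p = 0.0808) or treated replicate 4 (adjusted p = 0.0542).

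TM7SF2, a sterol C14 reductase (chr11:65111845-65116384, plus strand), went the other way. It measured 2.93, 5.96, 4.94 and 6.78 CPM in vehicle and 9.23, 11.1, 11.02 and 7.40 CPM in treated libraries. The lowest treated library was just above the highest vehicle library. The rise was 1.83-fold (log2 fold change 0.87, SE 0.25, adjusted p = 0.00185), and it rests on a total of 79 counts in the vehicle and 172 in the treated libraries. The 3 enzymes that remove the C4 methyl groups were not called. MSMO1, which oxidises them, had a ratio of 1.09 (95% interval 0.969 to 1.22, adjusted p = 0.196) and was called higher only with library size as the sole scaling (adjusted p = 0.00833). NSDHL, the dehydrogenase that follows, had a ratio of 0.901 (0.774 to 1.05), and HSD17B7, the ketoreductase, one of 0.833 (0.588 to 1.18). HSD17B7 has 2 pseudogenes by name.

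Genes of sterol transfer and efflux gave no call. STARD4, a carrier of sterol between membranes, had a ratio of treated to vehicle of 0.955 (95% interval 0.785 to 1.16). ABCA1, the exporter of cholesterol to apolipoprotein A-I, measured 28.4, 31.3, 30.1 and 25.1 CPM in vehicle and 28.2, 41.1, 25.8 and 24.8 CPM in treated libraries. Treated replicate 2 was the highest of all 8, while the other treated libraries lay within or just below the vehicle range, and the ratio was 1.07 (0.883 to 1.30). ABCG1, the exporter to lipoprotein particles, had a ratio of 1.149 (0.927 to 1.42) and was called higher only with library size as the sole scaling (adjusted p = 0.0497). The summed level of the 3 was 62.8 to 84.5 CPM in vehicle and 65.4 to 90.1 CPM in treated libraries, and the median of their log2 changes, 0.10, was -0.11 without treated replicate 2.

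Of the fatty acid enzymes, FASN and SCD were much lower, whereas ACACA and ACLY differed little. FASN, the multidomain synthase that makes palmitate (chr17:82078333-82098332, minus strand), measured 258, 269, 257 and 289 CPM in vehicle and 88.2, 86.0, 109 and 66.9 CPM in treated libraries. The vehicle libraries were at least 2-fold above every treated library. The mean went from 268 ± 15.04 to 87.7 ± 17.4 CPM (SD, n = 4), 3.07-fold lower (log2 fold change -1.62, SE 0.08, adjusted p = 1.48e-20). SCD, the desaturase that makes oleate (chr10:100347124-100364834, plus strand), measured 847, 739, 865 and 892 CPM in vehicle and 415, 453, 413 and 427 CPM in treated libraries. No treated library came near the vehicle range, and the fall was 1.95-fold (log2 fold change -0.97, SE 0.06, adjusted p = 7.01e-23).

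ACACA, the carboxylase that commits acetyl-CoA to fatty acids, measured 70.7, 80.8, 89.6 and 87.4 CPM in vehicle and 69.2, 64.7, 70.6 and 71.5 CPM in treated libraries. Vehicle replicate 1 lay within the treated range, and the 1.21-fold fall (adjusted p = 0.00660) was not called when library size alone set the scale (adjusted p = 0.212). ACLY, the citrate lyase that supplies cytosolic acetyl-CoA to both routes, measured 154, 145, 154 and 161 CPM in vehicle and 160, 174, 175 and 175 CPM in treated libraries. Treated replicate 1 lay within the vehicle range, and the 1.11-fold rise barely passed (log2 fold change 0.15, SE 0.07, adjusted p = 0.0414). That call was lost when vehicle replicate 1, 2 or 3 or treated replicate 2, 3 or 4 was left out, with adjusted p from 0.0623 to 0.146.

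Per kilobase of annotated exon, SCD was the most abundant of the 30 transcripts in both groups, at 156 ± 12.5 CPM per kb in vehicle and 79.7 ± 3.45 CPM per kb in treated cells (SD, n = 4). In vehicle cells ACAT2 came next at 64.4 ± 3.14 CPM per kb, followed by FDFT1, FDPS, SQLE, HMGCS1 and INSIG1 between 47.0 and 49.4 CPM per kb, which did not differ beyond their spread. In treated cells that group came apart. FDPS, FDFT1 and INSIG1 held 37.9 to 39.9 CPM per kb and now stood next after SCD, while SQLE was at 27.5 and HMGCS1 at 25.95 CPM per kb. FASN moved from place 10 to place 14 in the order and DHCR7 from 14 to 19, while ACLY moved from 9 to 5 and TM7SF2 from 29 to 23. INSIG2 was the least abundant in both groups, at 0.885 ± 0.340 and 1.07 ± 0.113 CPM per kb. Lengths are the union of all annotated exons, which overstates the length of genes with long rare isoforms.

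**Figure D3:**
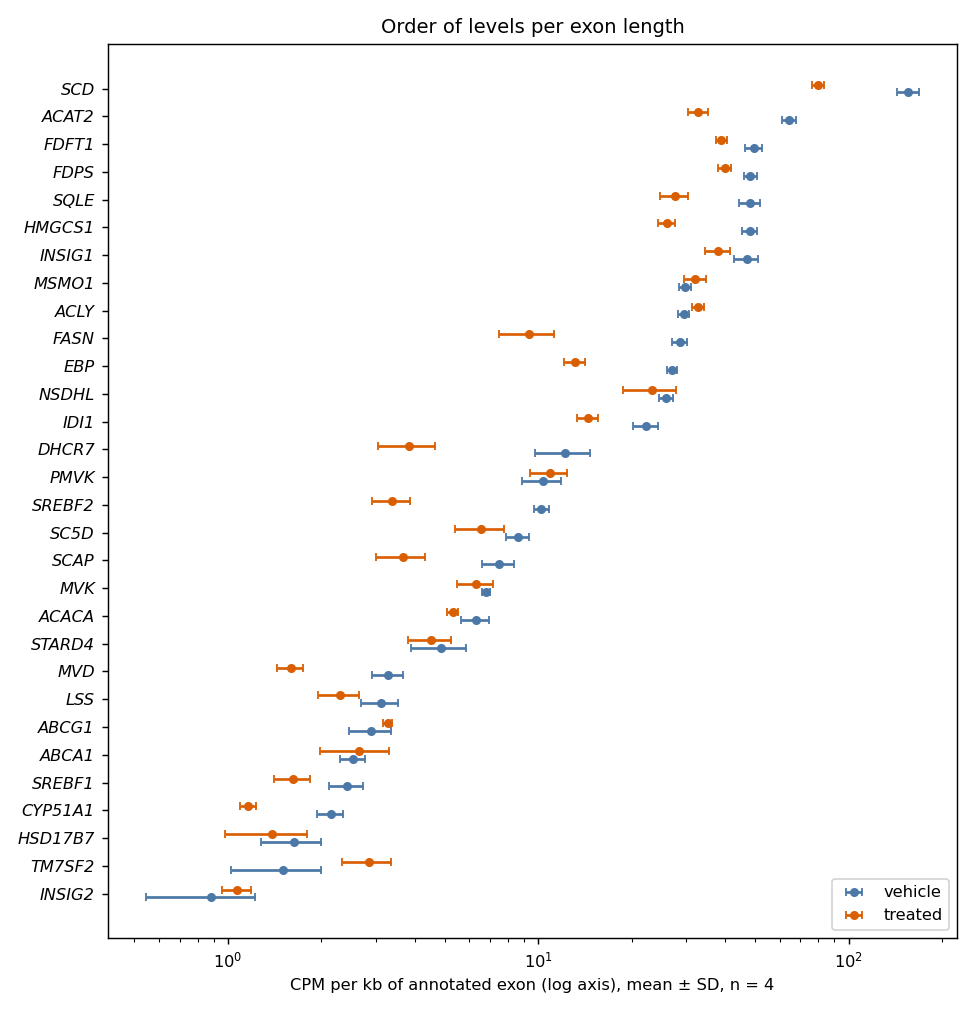
Mean level per kilobase of annotated exon (x axis, log scale, CPM per kb, bars are SD over 4 libraries) of the 30 genes, ordered from the highest to the lowest vehicle level, for vehicle (blue) and treated (orange) cells. SCD stays first at 156 and 79.7 CPM per kb, and FASN, DHCR7 and SREBF2 show the widest gaps between the colours.

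Some steps of these routes can be carried by either of a pair of genes, and the ratio of such a pair within a library does not depend on scaling between libraries. Of 6 pairs, 4 had groups without overlap (exact two-sided permutation test, p = 0.0286 for each, 0.0429 after adjustment over the 6 pairs). That p is the smallest that 4 against 4 allows, and it says only that the groups were apart. For single genes the groups did not overlap in 58.9% of those tested, and the share among other gene pairs was not computed. The log2 ratio of SREBF1 to SREBF2 was -1.94, -1.78, -2.33 and -1.91 in vehicle and -0.82, -0.90, -1.32 and -0.83 in treated libraries. SREBF1 thus went from 0.252 of the SREBF2 count to 0.513 of it, a 2.04-fold shift without overlap. TM7SF2 and LBR encode the alternative sterol C14 reductases, LBR being also a receptor for lamin B in the nuclear envelope. Their log2 ratio was -5.47, -4.53, -5.04 and -4.29 in vehicle and -2.89, -2.39, -2.27 and -3.19 in treated libraries. The shift was 4.44-fold towards TM7SF2 (mean difference 2.15), with TM7SF2 at 0.0351 of the LBR count in vehicle and 0.156 in treated cells. LBR itself fell 2.32-fold, from 145 ± 14.2 to 62.5 ± 7.71 CPM (adjusted p = 4.97e-19).

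In the desaturase and carboxylase pairs the share of SCD and of ACACA was lower in treated cells. The log2 ratio of SCD to its paralogue SCD5 was 5.64, 5.22, 5.88 and 5.66 in vehicle and 4.54, 4.81, 5.04 and 4.78 in treated libraries, a 1.75-fold shift. SCD5, with means of 17.1 CPM in the vehicle and 15.4 CPM in the treated group, was not called. For ACACA against ACACB, whose product sits at mitochondria and controls fatty acid entry, the log2 ratio was 3.76, 4.64, 3.91 and 4.32 in vehicle and 3.63, 3.09, 3.47 and 2.69 in treated libraries, a 1.91-fold shift. Vehicle replicate 1 and treated replicate 1 were close, yet the groups did not overlap. ACACB rose from 4.56 to 7.54 CPM (log2 fold change 0.69, adjusted p = 0.0272), a call lost in 4 of the 8 fits that left out a library (adjusted p 0.0519 to 0.136, without vehicle replicate 2 or 4 or treated replicate 2 or 4). The ratio of INSIG1 to INSIG2 changed by -0.63 log2 units (exact permutation p = 0.143, adjusted 0.171) and that of ABCA1 to ABCG1 by -0.15 (p = 0.429, adjusted 0.429), with overlapping groups in both pairs.

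**Figure D4:**
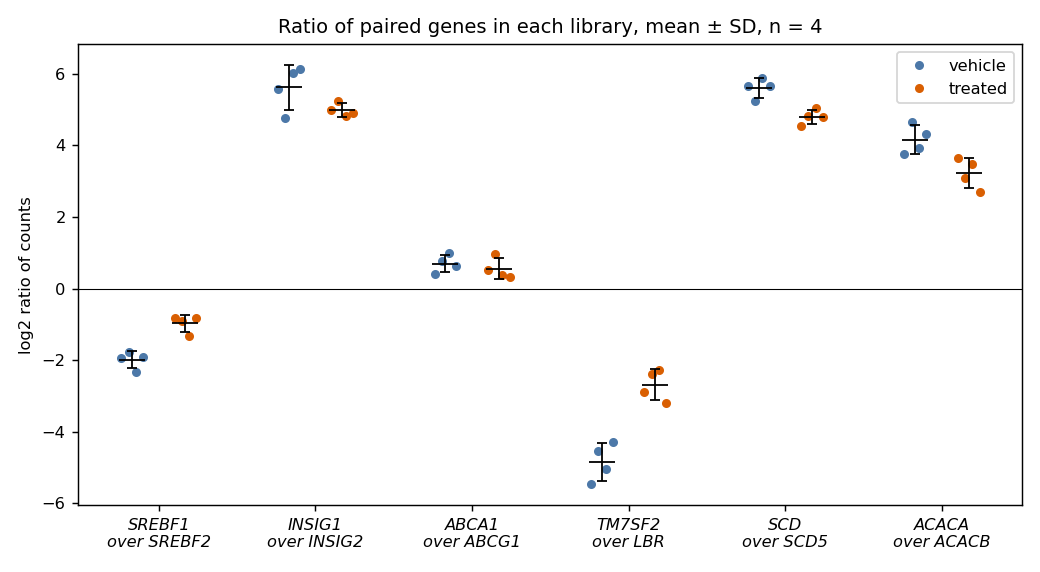
Log2 ratio of the counts of paired genes (y axis) in each of the 4 vehicle (blue) and 4 treated (orange) libraries, with mean and SD as bars. The SREBF1 to SREBF2 and TM7SF2 to LBR ratios are higher in all treated libraries, and the SCD to SCD5 and ACACA to ACACB ratios are lower in all of them.

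Sites for the transferred microRNAs were read from each gene's longest 3′ UTR in the annotation as the word complementary to the seed. For miR-449a this word is CACTGCC, and for miR-340-5p it is CTTTATA. The miR-449a word was found in 6 of the 30 genes (20%), beside 17.9% of the 10525 tested genes with an annotated 3′ UTR. The 6 sites are shown as 29 bases of transcript with the word in capitals, and the coordinates are those of the word (GRCh38).
SREBF2 chr22:41905639-41905645 (plus strand): ctgggtggtggCACTGCCattgccgcctc
SCAP chr3:47415120-47415126 (minus strand): ttggagacccaCACTGCCctcagccccct
HMGCS1 chr5:43290446-43290452 (minus strand): gaacagagaaaCACTGCCattgaagaggc
DHCR7 chr11:71435166-71435172 (minus strand): cgagtgtccagCACTGCCgtattgccagc
FASN chr17:82079018-82079024 (minus strand): cggcccagtgcCACTGCCccccgaggctg
ABCA1 chr9:104783178-104783184 (minus strand): aggagtatggcCACTGCCccactattttt
Of these 6 genes, 5 fell (SREBF2, SCAP, HMGCS1, DHCR7 and FASN) and ABCA1 was not called. Among all tested genes, 41.7% of those with the miR-449a word alone and 38.6% of those with both words were lower. Of the 6 genes, SREBF2, SCAP, DHCR7 and FASN fell at least 2-fold. How many of all tested genes with such falls carry the word was not computed, so these falls have no background. The sites of SREBF2 and HMGCS1 also had an A after the word, which makes the 8-base form CACTGCCA. The median change was -1.31 log2 units for the 6 genes with the word and -0.29 for the 24 without it. For all tested genes the medians were -0.13 with the word and 0.06 without it. In the shortest annotated 3′ UTR of each gene only FASN and HMGCS1 kept a site. The SREBF2 word starts at base 1450 of a 3118-base UTR, and the shortest UTR of that gene, with 1648 bases, does not hold the word. The SCAP word starts at base 625 of a 1514-base UTR, and the shortest UTR of SCAP has 118 bases. Whether these bases are coding sequence in other isoforms, and which isoforms the cells used, was not tested.

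The miR-340-5p word was found in ABCA1, DHCR7 and MVK, 3 of the 30 (10%), beside 19.9% of tested genes. Only DHCR7 of these fell, and it carries both words. Among all tested genes, 32.9% of those with the miR-340-5p word alone were lower. None of the 3 sites had the 8-base form CTTTATAA. Of the 23 genes with neither word, 14 fell and 2 rose, with a median of -0.31, beside 32.0% lower and a median of 0.05 among tested genes with neither word. MVD and EBP, both at least 2-fold lower, and SCD, SQLE and ACAT2 are among those 23. The miR-33 word CAATGCA was found in ABCA1, LSS and SCAP (10%, beside 9.59% of tested genes), at 4 places in ABCA1. A match is a description of the sequence and not a measured site, and the median length of these 3′ UTRs was 1072 bases beside 1468 for tested genes.

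Promoters were searched for the words of known factors as a description, with no test. RefSeq gave windows from 250 bases before to 50 bases after the start for 25 of the 30 genes, not for ACAT2, FDFT1, SQLE, ABCG1 and FASN. On either strand of any window of a gene, CCAAT, the word of the factor NF-Y that works beside SREBP, was in 19 of the 25 (76.0%), beside 43.9% of the 8750 tested genes with a window. Counted by single windows, it was in 67.6% of the 34 windows of these genes, beside 34.6% of all 35116 windows. GGGCGG, the word of SP1, was in 24 of the 25 (96.0%), beside 78.4% of tested genes. By single windows it was in 91.2%, beside 45.0% of all windows. TCACNCCAC, a form of the sterol regulatory element, was in SREBF2 alone (4.00%), beside 1.46% of tested genes. By single windows it was in 2.94%, beside 1.13% of all windows. The windows of SREBF2, of MVD, which has 3 CCAAT words, and of TM7SF2, which rose, are shown 5′ to 3′ in the direction of the gene, with the TCACNCCAC and CCAAT matches (ATTGG on the other strand) in capitals and coordinates from GRCh38.p14.
SREBF2 chr22:41832855-41833154 (plus strand): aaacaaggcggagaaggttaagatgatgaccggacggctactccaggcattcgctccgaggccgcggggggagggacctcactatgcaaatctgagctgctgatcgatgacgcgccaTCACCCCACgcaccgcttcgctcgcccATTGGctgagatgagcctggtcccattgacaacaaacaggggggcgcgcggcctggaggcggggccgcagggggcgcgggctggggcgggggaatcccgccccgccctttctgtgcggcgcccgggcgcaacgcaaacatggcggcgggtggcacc
MVD chr16:88663042-88663341 (minus strand): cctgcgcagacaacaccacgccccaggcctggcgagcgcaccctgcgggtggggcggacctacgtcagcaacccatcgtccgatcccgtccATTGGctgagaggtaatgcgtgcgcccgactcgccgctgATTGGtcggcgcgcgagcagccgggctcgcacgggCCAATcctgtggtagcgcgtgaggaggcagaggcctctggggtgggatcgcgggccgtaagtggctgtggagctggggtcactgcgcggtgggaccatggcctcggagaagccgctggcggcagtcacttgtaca
TM7SF2 chr11:65111622-65111921 (plus strand): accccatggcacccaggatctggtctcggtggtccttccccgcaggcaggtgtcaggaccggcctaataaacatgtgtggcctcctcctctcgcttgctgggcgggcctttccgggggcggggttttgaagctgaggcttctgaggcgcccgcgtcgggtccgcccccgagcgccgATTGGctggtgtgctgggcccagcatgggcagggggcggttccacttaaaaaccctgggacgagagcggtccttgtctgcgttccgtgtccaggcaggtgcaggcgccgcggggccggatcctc
The TCACCCCAC match of SREBF2 begins at base -133 relative to the start, and a CCAAT word on the other strand begins at -106. In TM7SF2 the CCAAT word, also on the other strand, begins at -74. The CCAAT word was present both in genes that fell, such as SREBF2, DHCR7, MVD and SCD, and in genes that were not called, such as MVK, MSMO1 and STARD4. No match says only that these letters are absent from this window.

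Genes around the core routes went both ways, and the counts are given beside 33.4% higher and 34.0% lower among all tested genes. Of 21 genes of SREBP processing and turnover, 7 rose and 9 fell (median -0.19). The falls were 7 with library size alone, 8 with DESeq2 or limma-voom and 10 without vehicle replicate 1 or 2. ERLIN1, part of a complex that binds sterol-sensing proteins for degradation, fell 4.54-fold from 69.4 ± 9.05 to 15.3 ± 2.20 CPM (SD, n = 4, adjusted p = 3.30e-23). Its partner gene ERLIN2 rose 2.05-fold from 46.6 ± 1.39 to 95.8 ± 3.24 CPM (adjusted p = 1.33e-15). SPRING1, a partner of the site-1 protease that is listed in the table as C12orf49, rose 2.08-fold, from 65.9 to 137 CPM. HSP90B1, an endoplasmic reticulum chaperone, fell 1.60-fold. Of 9 tested LXR and oxysterol genes, 4 rose and 4 fell (median -0.29, or 0.48 over 12 genes with no filter on low counts). That median was 0.03 without vehicle replicate 1 and 0.01 without vehicle replicate 4, with 10 genes tested in each, and -0.13 without treated replicate 4. CYP27A1, the sterol 27-hydroxylase, is 1 of the 4 counted as risen, and it passed the filter only through the treated group. Its mean was 0.787 CPM (12 counts in all vehicle libraries together) and 5.62 CPM (97 counts in the treated ones). LPCAT3, a phospholipid-remodelling LXR target, fell 3.62-fold, and RXRA, the partner receptor of LXR, fell 1.86-fold.

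Among 18 tested genes of lysosomal and membrane sterol transport, which move sterol within the cell, 10 rose and 2 fell, with a median of 0.58 log2 units. Without treated replicate 4, 4 of the 18 fell, and without vehicle replicate 2, 3 of 19 fell, with a median of 0.40. LIPA, the lysosomal acid lipase that frees cholesterol from its esters, rose 2.40-fold from 20.1 ± 1.83 to 48.0 ± 3.76 CPM (SD, n = 4, adjusted p = 1.43e-13). GRAMD1A, a carrier of cholesterol from the plasma membrane, rose 2.13-fold. CAV2 rose 3.79-fold, from 4.20 to 16.6 CPM, while CAV1, the main caveolin, fell 2.30-fold, from 34.9 to 14.8 CPM. Of 20 branch and other sterol enzymes, 4 rose and 11 fell (median -0.53). The falls were 8 with library size alone, 9 with DESeq2, and 9 or 10 when a library was left out. The median was -0.37 without vehicle replicate 3 and -0.59 without vehicle replicate 4. RCE1, COQ2 and FNTB each lost their call with library size alone and in several fits that left out a library. PDSS1, counted as fallen, had 132 vehicle and only 39 treated counts, so its place among the tested genes rests mainly on the vehicle group. Besides LBR, CYB5B, an outer mitochondrial membrane cytochrome b5, fell 2.99-fold, RABGGTB, a subunit of the Rab prenyl transferase, 2.90-fold, and ICMT, which methylates prenylated proteins, 1.92-fold.

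Fatty acid supply and use were split. Of 11 tested genes of acetyl-CoA and NADPH supply, 4 rose and 4 fell (median 0.09), with 2 rising when vehicle replicate 2 was left out. MTHFD1, of folate metabolism, fell 2.53-fold and PGD, of the pentose phosphate pathway, 1.65-fold. ACSS1, a mitochondrial acetyl-CoA synthetase, rose 2.64-fold and IDH1, a cytosolic source of NADPH, 1.63-fold. Of 17 tested genes of fatty acid elongation and desaturation, 4 rose and 9 fell (median -0.39). Leaving out vehicle replicate 2, vehicle replicate 4 or treated replicate 4 left 2 that rose. HACD2, a dehydratase of the elongation cycle, fell 3.11-fold from 53.8 ± 0.925 to 17.6 ± 1.42 CPM (SD, n = 4, adjusted p = 3.26e-18), its relative HACD3 1.44-fold, the elongase gene ELOVL5 1.93-fold and the desaturase gene FADS1 1.43-fold.

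Of 19 tested genes of glycerolipid synthesis and lipid droplets, 9 rose and 7 fell, with a median of 0.04, or -0.02 over the 22 genes that passed a filter of 1 CPM in 4 libraries. AGPAT4, an acyltransferase, rose 2.62-fold, LPIN2, a phosphatidate phosphatase, 1.84-fold and PLIN3, a droplet coat protein gene, 1.48-fold, while HILPDA, an inhibitor of droplet lipolysis, fell 1.97-fold. Of 26 tested genes of fatty acid oxidation, 13 rose and 5 fell (median 0.34). The rises were 11 without vehicle replicate 2 or treated replicate 1, and 16 with upper-quartile scaling or library size alone. The falls were 4 with library size alone and 6 without vehicle replicate 2. SLC25A20, counted as risen, had only 30 counts in all vehicle libraries together (mean 1.92 CPM), beside 121 in the treated ones. Its place among the tested genes rests mainly on the treated group. CPT1A, the gate for entry of fatty acids into mitochondria, rose 4.43-fold from 5.04 ± 0.956 to 22.8 ± 6.27 CPM (SD, n = 4, adjusted p = 1.69e-13). Enzymes of the oxidation cycle itself included the falls with the smallest p of that list, HADH 4.28-fold, ACAA2 2.80-fold and HADHA 2.01-fold. These named genes are among the 4 of each list with the smallest adjusted p, so their sizes do not stand for their lists.

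**Figure D5:**
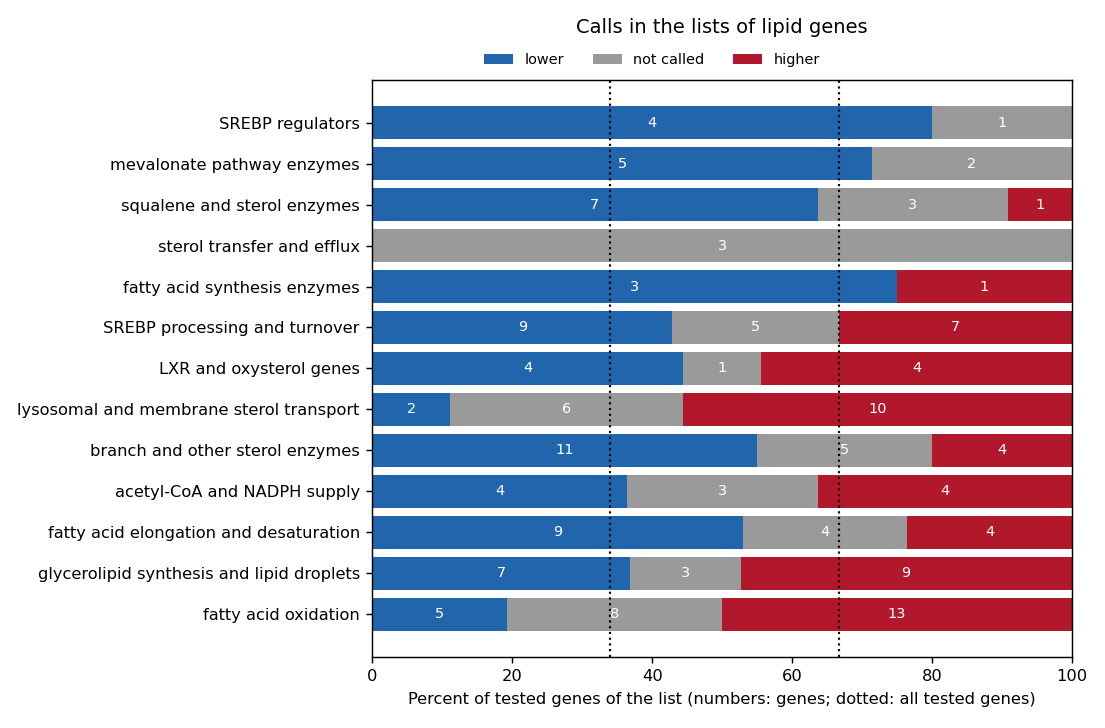
Share of tested genes (x axis, percent) called lower (blue), not called (grey) and higher (red) in the 5 roles of the 30 genes and in 8 lists of neighbouring pathways, with gene numbers in the bars. Dotted lines mark the shares of all tested genes, 34.0% lower from the left and 33.4% higher from the right. The SREBP regulators reach farthest in blue (4 of 5), and lysosomal and membrane sterol transport shows the most red (10 of 18).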

How the data were processed

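Polyadenylated RNA libraries of RD18 cells (8 in all, 4 vehicle and 4 treated) were made with a stranded kit, per the labels' protocols. The authors deposited raw read counts for each gene symbol. According to the submitters' processing notes, HTSeq 0.5.3p3, TopHat2 2.0.13, DESeq2 and SAMtools 0.1.19.24 were used, with the build GRCh38. What each tool did, which gene models were used and whether strand was kept is not given in the sources used here. Groups came from the labels, and columns were matched through library codes.

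Genes passed filterByExpr (minimum count 10, minimum total 15), were scaled by TMM and tested over all 12366 genes with edgeR 4.0.16 (R 4.3.3, quasi-likelihood test, group as the only term, two-sided, Benjamini-Hochberg adjustment, threshold 0.05). The test was tried on simulated counts. At these totals 1 CPM is 2.39 to 5.86 counts. Replicate pairs differed by more than sampling noise (chi-square per gene 2.38 to 7.55, about 1 for noise). Pair ratios added 0.5 to each count and used scipy 1.17.1. Gene positions and 3′ UTRs (minimum 50 bases) came from GENCODE 29, and promoters and microRNAs from RefSeq. Alternatives were DESeq2 1.42.0, limma-voom (limma 3.58.1), other scalings, filters and thresholds, a replicate block and leaving out each library. All 30 genes are named. From each neighbouring list, up to 4 genes with the smallest adjusted p and a mean of at least 1 CPM are named. A result that this rule names is not reported here. The genes and lists were chosen with earlier results of these data known. Of the listed neighbours, SPRING1 and ERG28 were matched through older symbols.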

Additional observations from a re-analysis of the deposited data

Results flagged for a closer look

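A library far from the other 3 of its group was found in 4 of 72 groups of values checked (5.56%), where chance gives about 1 in 20. PMVK in vehicle replicate 1 measured 10.5 CPM, below the 13.98 CPM of the next library, in a gene that was not called. SQLE in vehicle replicate 3 measured 231 CPM, above the next at 200.1 CPM, and all treated libraries were lower than both. ACLY in treated replicate 1 measured 159.8 CPM, below the next at 174 CPM and within the vehicle range. The log2 ratio of SREBF1 to SREBF2 in treated replicate 3 was -1.32, below the next at -0.90 and still above every vehicle library.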

How the results depend on the processing

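Each of the 30 genes was refitted under 17 alternatives. Of these 510 comparisons, 495 kept their call, 13 lost a call and 2 gained one, and no called change reversed, while 22 of the 30 genes kept their call in every alternative. The sign of 4 uncalled genes changed in some: MVK reached 0.05 and STARD4 0.07 log2 units with library size alone, PMVK -0.04 without vehicle replicate 1 and ABCA1 -0.11 without treated replicate 2. With library size as the only scaling, 5 genes lost and 2 gained a call, so that 4 of the 30 were higher. Leaving out single libraries gave 1 to 2 higher. An adjusted p under 0.01 gave 1 higher, and a minimum of 1.5-fold gave 1 higher and 12 lower. With the 8-base word, 2 genes had a miR-449a site and 0 a miR-340-5p site, and in the shortest 3′ UTR 2 and 0. The cause of these shifts was not tested, except that a stricter threshold or a longer word leaves fewer matches by construction. A shorter UTR also holds fewer bases to match. Pair ratios moved by less than the spread under other pseudocounts and without any library, where they were compared as values only.

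No pairing by replicate number was seen: deviations of same-numbered libraries correlated at 0.013 to 0.056. Libraries of different numbers were not compared in this way, and a shared culture or day was not tested. The fit with a replicate block gave 4102 higher and 4171 lower genes, with 2 and 19 of the 30, and changed no call among them.

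Depth limits INSIG2, HSD17B7, CYP51A1 and TM7SF2, with means under 10 CPM in both groups. Counts cannot separate overlapping genes or pseudogene copies, and the microRNAs themselves were not measured.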
